A study of Mus musculus with 8 samples.

Results

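Origin recognition and replication licensing genes are described here in whole testes of 12-day-old mice (P12), as counts of RNA-seq reads per gene. The set holds 9 genes taken by symbol, *Orc1*, *Orc2*, *Orc3*, *Orc4*, *Orc5*, *Orc6*, *Cdc6*, *Cdt1* and *Gmnn*, out of 40840 genes listed in the tables. All 9 passed the filter on low counts, which left 19104 genes for testing. The family was put forward because *Orc2* and *Orc4* had already stood out between the genotypes in these libraries, so the genotype differences of both are given as a description with no p-value, and nothing is read from whether a fit called them. The other 7 genes came in by name as parts of the same machinery.

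Before each S phase, the origin recognition complex (ORC), built from the products of *Orc1* to *Orc6*, sits on replication origins. CDC6 and CDT1 then join it and load the MCM2-7 helicase onto the DNA, which licenses the origin, while geminin, the product of *Gmnn*, holds CDT1 inactive after licensing so that no origin is used again in the same cycle. In a juvenile testis, spermatogonia divide by mitosis and then pass through a last, premeiotic S phase before meiosis begins, and somatic cells such as Sertoli cells also still replicate at young ages.

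The study asked what happens when the *Tra2b* poison exon, an exon whose inclusion stops translation of the splicing regulator TRA2B, is deleted in male germ cells. The 4 wild type mice carried *Tra2bPE* fl/+ and no Cre, and the 4 *Tra2b-cPEko* mice carried *Tra2b* fl/- with *Vasa-Cre*, which recombines in germ cells from late embryonic life. Mice were independent and on a C57BL/6J background, and both genotypes were collected at P12. Somatic cells of *Tra2b-cPEko* testes still hold a floxed poison exon, and the exact age of such testes can shift their mix of cell types. In whole tissue, fewer cells of a type and less RNA per cell cannot be told apart.

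Libraries held between 36757386 and 59101569 reads on genes, and each licensing gene had between 1009 and 5029 counts in a library. Levels are CPM, the counts of a gene scaled to the size of its library after TMM normalization, and fold changes with their standard errors (SE) and 95% intervals come from edgeR's quasi-likelihood fit over all tested genes, as *Tra2b-cPEko* minus wild type on the log2 scale. Of the targeted gene *Tra2b*, wild type testes had 164 ± 8.93 and *Tra2b-cPEko* testes 198 ± 8.49 CPM (SD, n = 4 each), and of its paralog *Tra2a* they had 129 ± 15.3 and 69.5 ± 3.36 CPM. The difference of *Tra2a* passed the test (log2 fold change -0.89, adjusted p = 0.00231, edgeR) and that of *Tra2b* did not (0.27, adjusted p = 0.0552, edgeR). For *Tra2b* the genotypes did not overlap, and the adjusted p was 0.000195 with DESeq2 and 0.0808 with limma-voom, so the call depended on the tool. Germ cell and Sertoli cell markers were detected in every library, as the label of whole testis requires.

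Promoter sequence is shown first for the genes whose window held an E2F site, because E2F factors are textbook activators of genes needed for S phase. The search used TTTCCCGC, TTTGGCGC, TTTCGCGC and TTTGCCGC on both strands of RefSeq windows (GRCm38.p6) that run from 250 bases before to 50 bases after a start site, and the 4 motifs do not overlap each other in these windows. Windows were found for 8 of the 9 genes, 11 windows in all, and *Gmnn* had no entry. A site stood in 4 of the 11 windows, those of *Orc1*, *Orc3*, *Cdc6* and *Cdt1*, against 2.26% of all 32851 windows. *Orc2*, which differed most between genotypes, had no match in its windows and is printed beside them for comparison. The capitals mark the E2F site, and each sequence reads 5′ to 3′ on the gene's own strand.
Orc1, chr4:108579354-108579453, plus strand: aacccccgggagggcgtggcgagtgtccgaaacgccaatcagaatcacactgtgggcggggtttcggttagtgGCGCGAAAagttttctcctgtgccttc
Orc3, chr4:34614943-34615042, minus strand: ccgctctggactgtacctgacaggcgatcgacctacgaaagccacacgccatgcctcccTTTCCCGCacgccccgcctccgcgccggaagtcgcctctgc
Cdc6, chr11:98907963-98908062, plus strand: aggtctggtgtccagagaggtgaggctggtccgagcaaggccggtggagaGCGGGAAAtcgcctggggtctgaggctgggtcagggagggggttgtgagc
Cdt1, chr8:122568035-122568064, plus strand: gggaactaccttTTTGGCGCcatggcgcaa
Orc2, chr1:58505110-58505209, minus strand: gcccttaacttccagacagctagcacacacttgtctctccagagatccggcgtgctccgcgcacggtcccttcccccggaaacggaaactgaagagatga
In *Orc1* and *Cdc6* the site reads on the opposite strand, so the capitals show its reverse complement. The first base of the site lay 27 bases before the start site in *Orc1*, 41 bases before it in *Orc3* and 138 bases before it in *Cdc6*. In *Cdt1* the site began at base 33 of the transcript. A match is a description of the letters only.

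*Orc2*, a core subunit of ORC, had the largest difference of the set. The wild type mice A to D were at 89.0, 85.7, 83.8 and 85.2 CPM, and the *Tra2b-cPEko* mice A to D at 69.0, 74.1, 71.6 and 69.3 CPM. Every *Tra2b-cPEko* mouse was below every wild type mouse, and the gap between the genotypes was wider than the range within either. The log2 fold change was -0.27 (SE 0.0425, 95% interval -0.37 to -0.18), a difference of -17.3% in mean CPM. At an adjusted p under 0.05, edgeR called 1 of the 9 genes, *Orc2*, where 0.157% of all tested genes were called in either direction and 0.0262% as lower. The family was chosen on this gene, so neither the call nor the interval is support for a difference. The call was lost in the fits without wild type mouse A, B or D and without *Tra2b-cPEko* mouse A, C or D, while the log2 fold change stayed between -0.30 and -0.26 when any mouse was left out. The gene lies on chromosome 1 (58497840 to 58544270, minus strand, GRCm39), and 20.7% of its annotated exon bases are shared with *Nif3l1* on the other strand. The mice overlapped for *Nif3l1* (31.3 ± 1.86 CPM in wild type against 29.6 ± 0.324 CPM, SD, n = 4 each).

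*Orc4*, an ATP-binding subunit of the complex, was second. Wild type mice A to D had 52.9, 50.4, 50.3 and 48.2 CPM, and *Tra2b-cPEko* mice had 43.6, 45.8, 43.2 and 47.0 CPM. The genotypes did not overlap, although the highest *Tra2b-cPEko* mouse (D) came close to the lowest wild type mouse (D). The log2 fold change was -0.17 (SE 0.0493, 95% interval -0.28 to -0.06). The family was chosen on *Orc4* too, so this interval is a description and no support for a difference. *Orc4* lies on chromosome 2 (48790203 to 48840289, minus strand) and shares 22.2% of its exon bases with *Acvr2a* on the other strand, whose mice overlapped between genotypes (44.7 ± 2.37 against 43.4 ± 0.544 CPM, SD, n = 4 each).

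**Figure D1:**
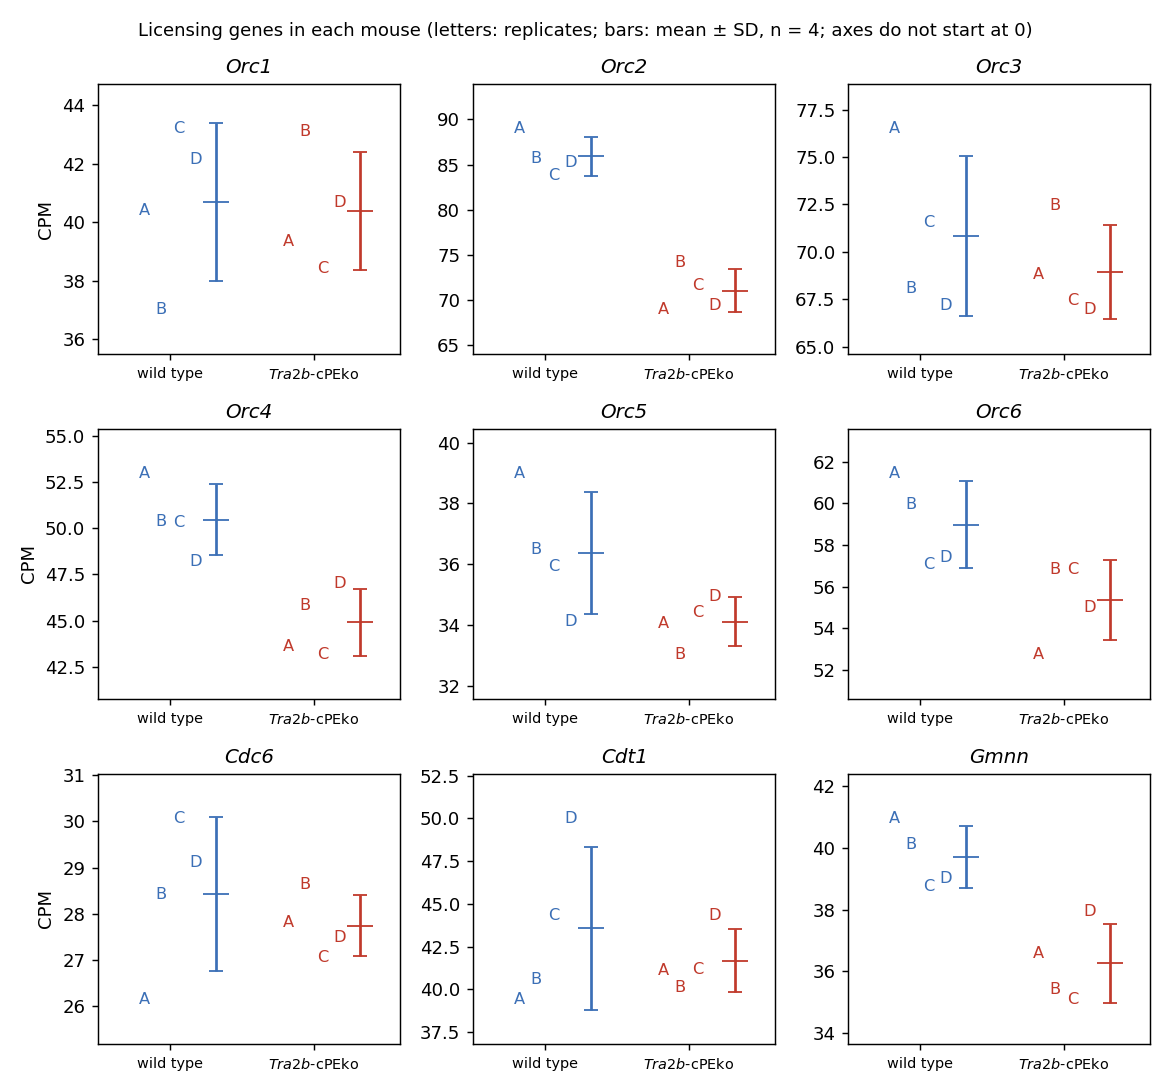
CPM of the 9 licensing genes (y axis, one panel a gene, axes not starting at 0) in each mouse by genotype (x axis). Letters mark the replicates, and the bars give the mean ± SD of 4 mice. The letters of the genotypes separate for *Orc2*, *Orc4*, *Orc6* and *Gmnn* and overlap for the other 5 genes; the widest spread within a genotype is that of *Cdt1* in wild type, from 39.4 to 49.99 CPM.

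Among the other subunits, *Orc6*, which encodes the smallest subunit, was at 61.4, 60.0, 57.1 and 57.4 CPM in wild type mice A to D and at 52.8, 56.9, 56.8 and 55.0 CPM in *Tra2b-cPEko* mice. The genotypes did not overlap, but only by the distance from 57.1 to 56.9 CPM, and the log2 fold change of -0.09 did not pass the test (SE 0.0464, adjusted p = 0.373, edgeR). *Orc5* had 39.0, 36.5, 35.9 and 34.1 CPM in wild type and 34.1, 33.04, 34.4 and 34.9 CPM in *Tra2b-cPEko* mice. Wild type mouse D lay inside the range of the *Tra2b-cPEko* mice, and the difference of *Orc5* did not pass the test (log2 fold change -0.09, SE 0.0532, adjusted p = 0.434, edgeR).

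*Orc1* and *Orc3* had the smallest differences within the complex. *Orc1* encodes the subunit whose level follows the cell cycle most closely, and it read 40.4, 37.0, 43.2 and 42.1 CPM in wild type against 39.4, 43.1, 38.4 and 40.7 CPM in *Tra2b-cPEko* mice. The mice of the genotypes were fully interleaved (log2 fold change -0.01, SE 0.0594, adjusted p = 0.945, edgeR), and the sign turned with upper-quartile scaling and in 3 of the fits that left out a mouse. *Orc3* read 76.5, 68.1, 71.6 and 67.2 CPM in wild type against 68.8, 72.5, 67.5 and 67.0 CPM in *Tra2b-cPEko* mice (log2 fold change -0.04, SE 0.051, adjusted p = 0.752, edgeR). Its wild type mean rested partly on mouse A, the highest of the 8 mice. *Orc3* shares 32.9% of its exon bases with *Akirin2* on the other strand, and *Akirin2* itself was lower without overlap of the mice (63.1 ± 2.03 against 57.9 ± 0.62 CPM, SD, n = 4 each, adjusted p = 0.208, edgeR).

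The loading factors were alike in that neither separated the genotypes. *Cdc6*, whose product completes the ring around DNA with ORC, had 26.2, 28.4, 30.1 and 29.1 CPM in wild type and 27.8, 28.6, 27.1 and 27.5 CPM in *Tra2b-cPEko* mice, all inside the wild type range (log2 fold change -0.04, SE 0.0563, adjusted p = 0.801, edgeR). *Cdt1*, whose product brings MCM2-7 to the origin, had 39.4, 40.6, 44.3 and 49.99 CPM in wild type and 41.1, 40.1, 41.2 and 44.3 CPM in *Tra2b-cPEko* mice. Mouse D was the highest for *Cdt1* in both genotypes, and without wild type mouse D the log2 fold change went from -0.07 to 0.0043 (SE with all mice 0.0716, adjusted p = 0.694, edgeR). No annotated gene overlaps *Cdc6* or *Cdt1*.

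*Gmnn*, the inhibitor of CDT1, was at 41.0, 40.1, 38.8 and 39.0 CPM in wild type and at 36.6, 35.4, 35.1 and 37.9 CPM in *Tra2b-cPEko* mice. The genotypes of *Gmnn* did not overlap, and the difference did not pass the test over all genes (log2 fold change -0.13, SE 0.0482, 95% interval -0.24 to -0.03, adjusted p = 0.241, edgeR). An annotated long noncoding RNA on the other strand, *Gm56584*, shares 20.8% of the *Gmnn* exon bases. The balance of licensing factor and inhibitor varied more among wild type mice than between genotypes. The log2 ratio of *Cdt1* to *Gmnn* was -0.29, -0.22, -0.04 and 0.13 in wild type mice A to D, after scaling by exon length, while the *Tra2b-cPEko* mice, at -0.06, -0.05, 0.00 and -0.01, all lay inside that range.

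Read as a group, the median of the 9 log2 fold changes was -0.09, against 0.00 over all 19104 tested genes, and all 9 values were below 0, as were 50.3% of all genes. The sign of *Orc1* and *Cdt1* depended on the fit, as given above. In 4 of the 9, *Orc2*, *Orc4*, *Orc6* and *Gmnn*, every *Tra2b-cPEko* mouse was below every wild type mouse, a pattern seen in 4.18% of all genes (8.54% without overlap in either direction and 4.36% higher). An unadjusted p under 0.05 went with a lower level in 3 of the 9, against 7.07% of all genes, and with a higher level in 0 of the 9, against 8.22%. Both counts of lower genes hold *Orc2* and *Orc4*, on which the family was chosen, so they partly restate that choice. Of the 7 genes that came in by name, the count without overlap holds *Orc6* and *Gmnn*. *Orc6* was separated only narrowly, as given above. The count by unadjusted p holds *Gmnn* alone of these 7. Since part of the set was chosen on this contrast, the counts of the 9 are descriptive and their distance from the shares of all genes is not read. DESeq2 called 2 of the 9, where it called 2.79% of all genes with an adjusted p, and both were the genes that the family was chosen on, *Orc2* and *Orc4*. Limma-voom called 0 of the 9, where it called 0.0576% of all genes. Of the 7 genes that came in by name, 0 were called by edgeR, DESeq2 or limma-voom. The summed CPM of the 9 genes ran from 447 to 466 in wild type and from 413 to 430 in *Tra2b-cPEko* mice. That sum holds *Orc2* (mean 85.9 against 71.0 CPM) and *Orc4* (50.5 against 44.9 CPM), so it partly restates the differences that the family was chosen on. A sum without both was not taken. Between mice, the median coefficient of variation of the 9 genes was 5.54% for wild type and 3.56% for *Tra2b-cPEko*, where all tested genes had 8.77% and 7.01%. The 9 genes lay above 58.5% (*Cdc6*) to 80% (*Orc2*) of tested genes in mean CPM. Genes of like level were not compared, so the lower values are not read as a trait of the set.

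**Figure D2:**
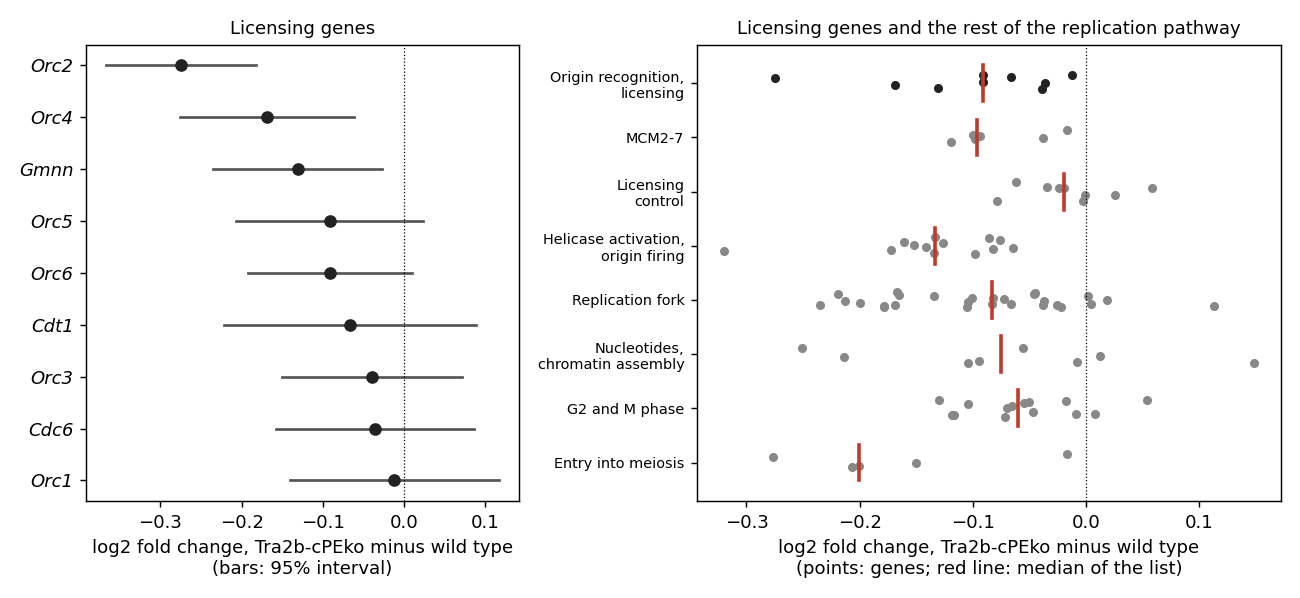
Left, log2 fold change (x axis, *Tra2b-cPEko* minus wild type) with its 95% interval for each licensing gene (y axis). Right, the same fold change for every tested gene (points) of the licensing set and of 7 other lists, with the median of each list as a red line. The 7 lists cover the replication pathway, G2 and M phase, and entry into meiosis. The 9 licensing genes run from -0.27 for *Orc2* to -0.01 for *Orc1*, and the medians of all lists lie below 0. The family was chosen on *Orc2* and *Orc4*, so their intervals are descriptive.

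Summed markers of some cell types also differed between the genotypes. Markers of germ cells of all stages summed to between 1521 and 1774 CPM in wild type and between 1482 and 1513 CPM in *Tra2b-cPEko* mice, with 7 of 7 log2 fold changes below 0. Markers of differentiating spermatogonia, the dividing germ cells that approach meiosis, summed to between 562 and 634 against between 487 and 534 CPM, also with 7 of 7 below 0. Neither sum overlapped between genotypes, but that of germ cells only by the distance from 1521 to 1513 CPM. Taken alone, 0 of the 7 germ cell markers and 2 of the 7 of differentiating spermatogonia were lower without overlap, against 4.18% of all genes. *Dazl*, at a mean of 673 against 633 CPM and with overlap, weighed most in the germ cell sums. Those of undifferentiated spermatogonia (296 to 349 against 305 to 326 CPM, 4 of 10 log2 fold changes below 0) overlapped. So did those of leptotene and zygotene spermatocytes (1808 to 2415 against 1879 to 1946 CPM, 10 of 13 below 0). Sertoli cell sums overlapped too (6865 to 7431 against 6895 to 7697 CPM), with 10 of 12 below 0. *Clu*, at a mean of 3643 CPM in wild type and 3798 CPM in *Tra2b-cPEko* mice, weighed most in the Sertoli sums and was not among those below 0. Macrophage markers were higher, with sums of 121 to 141 against 145 to 173 CPM and 8 of 8 log2 fold changes above 0. Taken alone, 0 of these 8 markers were higher without overlap, against 4.36% of all genes. Peritubular markers also had 8 of 8 above 0, but their sums overlapped (1475 to 1722 against 1607 to 1855 CPM), as did those of Leydig cells (393 to 467 against 414 to 656 CPM, 5 of 7 above 0), endothelial cells (148 to 178 against 158 to 176 CPM, 5 of 6 above 0) and pachytene spermatocytes (276 to 521 against 301 to 384 CPM, 7 of 8 tested genes below 0). No marker in any of these 10 lists was at 0 in any library. The part of these shifts in the values of the licensing genes was not tested.

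The 6 ORC subunits act in a shared complex, and their relative transcript levels were compared within each mouse, as CPM per kilobase of annotated exon. *Orc2* made up 24.4 ± 0.283% of the summed length-scaled level of the 6 subunits in wild type (SD, n = 4, range 24.1 to 24.7%) and 22.0 ± 0.286% in *Tra2b-cPEko* mice (SD, n = 4, range 21.6 to 22.2%). The share of *Orc2* did not overlap between genotypes, and those of the other 5 subunits did. *Orc6* held the highest share (39.7 ± 0.762% against 40.6 ± 0.696%) and *Orc4* the lowest (6.17 ± 0.0989% against 5.98 ± 0.232%). In log2 terms *Orc2* stood 1.05 ± 0.036 above the mean of the other 5 subunits in wild type and 0.855 ± 0.037 above it in *Tra2b-cPEko* mice, a difference of -0.20 with no overlap. The family was chosen on *Orc2*, so its share and its log2 distance restate that difference and are descriptive only. The length of the longest transcript in place of all exons only rescales the same CPM. With it, the share of *Orc2* was lower without overlap (24.3% against 21.9%), and that of *Orc3* was higher without overlap (12.7% against 13.4%). The shares of a mouse add up to a whole, so a lower share of *Orc2* raises those of the others. The CPM of *Orc3* itself was not higher (log2 fold change -0.04, mice overlapping).

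The order of the length-scaled levels does not use the genotype contrast and was tested over the 8 mice, with a two-sided exact sign-flip test on the difference of each pair of neighbours within a mouse, adjusted over 8 pairs (smallest possible p = 0.00781). *Orc6* was highest, at 23.4 ± 0.827 CPM per kilobase in wild type and 22.0 ± 0.767 in *Tra2b-cPEko* mice (SD, n = 4 each). It stood 0.72 ± 0.064 (SD) on the log2 scale above *Gmnn* in 8 of 8 mice (adjusted p = 0.0156, exact sign-flip test). *Gmnn* (14.4 and 13.2 CPM per kilobase), *Cdt1* (13.5 and 12.9) and *Orc2* (14.4 and 11.9) followed, and neither pair of neighbours among them was shown to differ (adjusted p = 0.259 for *Gmnn* and *Cdt1* and 0.898 for *Cdt1* and *Orc2*, exact sign-flip test). The latter pair pooled opposite orders, since *Orc2* was above *Cdt1* in 3 of 4 wild type mice and below it in 3 of 4 *Tra2b-cPEko* mice, so its test says nothing about the order within a genotype. A gap came next, since *Orc2* exceeded *Orc1* (7.08 and 7.03 CPM per kilobase) by 0.89 ± 0.165 in 8 of 8 mice (adjusted p = 0.0156, exact sign-flip test).

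Below it, *Orc1* exceeded *Orc3* (5.51 and 5.36 CPM per kilobase) by 0.38 ± 0.084 in 8 of 8 mice (adjusted p = 0.0156, exact sign-flip test), and *Orc3* exceeded *Cdc6* (5.18 and 5.05) by 0.09 ± 0.103 in 7 of 8 mice (adjusted p = 0.025, exact sign-flip test). *Cdc6* and *Orc5* (4.89 and 4.59) were not shown to differ (0.11 ± 0.116, adjusted p = 0.0521, exact sign-flip test). *Orc4* was lowest, at 3.63 ± 0.139 in wild type and 3.23 ± 0.13 CPM per kilobase in *Tra2b-cPEko* mice, 0.47 ± 0.062 below *Orc5* in 8 of 8 mice (adjusted p = 0.0156, exact sign-flip test). The order depends on which exons are counted, and the sign-flip test takes the lengths as given. With the longest transcript as length *Orc1* fell below *Orc3*, at 9.42 against 12.3 CPM per kilobase in wild type. By that length *Orc2* also stood 0.44 ± 0.177 above *Cdt1* in 8 of 8 mice (adjusted p = 0.0104, exact sign-flip test). *Cdc6* fell below *Orc5* as well, at 5.92 against 9.72 CPM per kilobase in wild type. The p-values given for the order by all exons therefore hold only for those lengths. The annotation lists between 12 and 62 transcripts for these genes, and with the longest transcript of each as its length *Orc6* was still first, but *Orc2* moved from rank 4 to rank 2, *Gmnn* from 2 to 4, *Orc1* from 5 to 7 and *Cdc6* from 7 to 9, the lowest.

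**Figure D3:**
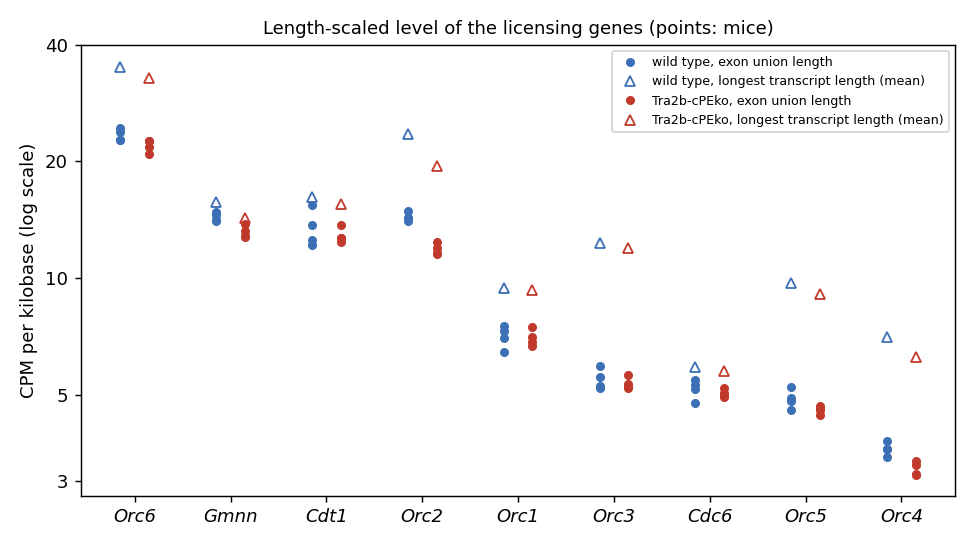
Level of each licensing gene in CPM per kilobase (y axis, log scale) with genes (x axis) in the order of their mean over 8 mice. Points are mice scaled by the length of all annotated exons and open triangles are group means scaled by the longest transcript. *Orc6* is highest on both scales (23.4 and 35.0 CPM per kilobase in wild type), while *Orc3*, *Orc4* and *Orc5* change most between scales.

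Within genotypes, some licensing genes varied together from mouse to mouse. Correlations were taken over 8 mice on log2 CPM after removing each genotype's mean, and they are descriptive, since all genes of a mouse share its library and its mix of cells. *Orc2* and *Orc6* had the highest value (Pearson r = 0.85, with 0.90 among wild type and 0.82 among *Tra2b-cPEko* mice). *Orc4* and *Gmnn* followed with r = 0.68, and *Orc2* and *Orc3* had r = 0.66. The lowest value was that of *Orc5* and *Cdc6* (r = -0.82, with -0.82 and -0.86 in the genotypes taken alone).

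*Orc1*, *Cdc6* and *Cdt1*, which all held an E2F site in their window, correlated with one another at r between 0.42 and 0.50. Among the *Tra2b-cPEko* mice alone, however, *Cdt1* had negative values with *Cdc6* (r = -0.49) and with *Orc1* (r = -0.17). *Orc3*, which also held a site, had r = -0.64 with *Cdt1*. Several further pairs differed in sign between genotypes, such as *Orc3* and *Orc5* (0.87 in wild type and -0.98 in *Tra2b-cPEko*), so these values depended on which 4 mice were read.

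**Figure D4:**
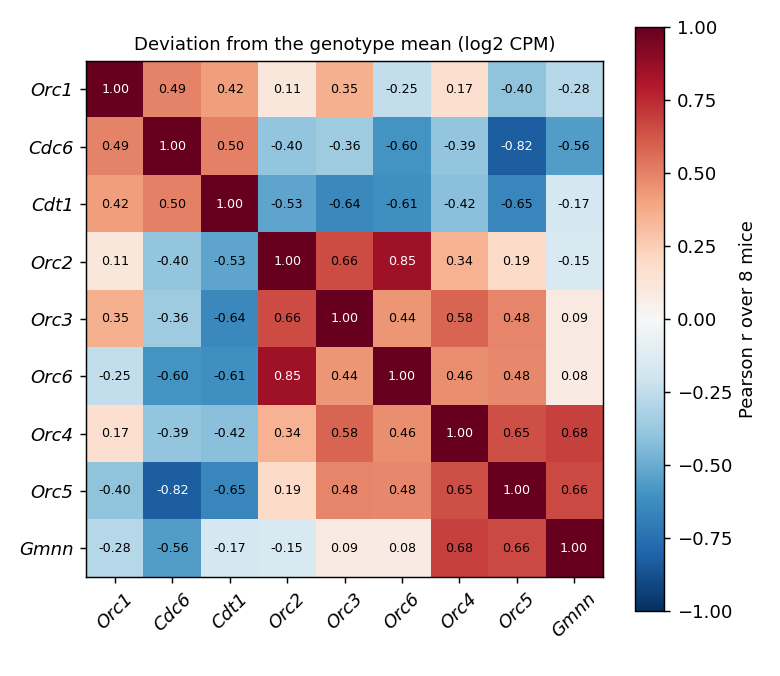
Pearson r (colour and printed value) between the 9 licensing genes on both axes, from log2 CPM minus the genotype mean over 8 mice. *Orc1*, *Cdc6* and *Cdt1* are positive with one another, as are *Orc2* to *Orc6*, with the highest value for *Orc2* and *Orc6* (0.85) and the lowest for *Orc5* and *Cdc6* (-0.82).

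Of 15476 genes compared, all averaging 1 CPM or more, those most like *Orc2* in this measure were *Nup210* (r = 0.998), *Btbd10* (0.987), *Pfkfb2* (0.982), *Ptpra* (0.98) and *Nktr* (0.976), over 8 mice. These genes were picked as the highest of all 15476, and how high r would run by chance over 8 mice was not tested. Their own log2 fold changes between genotypes ran from -0.13 for *Nup210* to 0.08 for *Pfkfb2*. *Orc6* was the licensing gene closest to *Orc2*, at rank 145, and the next, *Orc3*, was at rank 938.

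The rest of the replication pathway was read together with G2 and M phase genes and genes of entry into meiosis. These made 7 lists with 84 genes outside the set, of which 82 were tested. The pooled counts that follow take in the 14 genes of G2 and M phase and the 5 of entry into meiosis. None of the 82 was called by edgeR (smallest adjusted p = 0.0791, *Lig1*, edgeR), 23 had an unadjusted p under 0.05, all of them lower, where 7.07% of all genes did so, and limma-voom called 0. DESeq2 called 7 of the 82, all lower, against 1.14% of all genes called lower. The log2 fold change was below 0 for 72 and above 0 for 10, with a median of -0.08, and 18 were lower with no overlap of the mice while 0 were higher, against 4.18% of all genes lower without overlap.

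The MCM2-7 helicase subunits, which the licensing factors load, had a median of -0.10 with 6 of 6 values below 0, from *Mcm7* (-0.12, SE 0.0452) to *Mcm2* (-0.02, SE 0.0571). Summed, they were at 1022 to 1071 CPM in wild type and 970 to 996 CPM in *Tra2b-cPEko* mice, without overlap. Genes of helicase activation and origin firing had the lower median of -0.13 with 13 of 13 below 0, from *Gins1*, a subunit of the GINS complex of the active helicase (16.7 ± 1.93 against 13.4 ± 0.416 CPM, SD, n = 4 each, log2 fold change -0.32), to *Recql4* (-0.06). Replication fork genes had 23 of 27 below 0 and a median of -0.08, from the primase subunit *Prim1* (-0.24) to the polymerase alpha subunit *Pola1* (0.11).

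Genes of nucleotide supply and chromatin assembly had 6 of 8 below 0, from *Rrm2*, a subunit of ribonucleotide reductase (-0.25), to *Chaf1b*, a subunit of a histone chaperone (0.15). Regulators of licensing, such as the ubiquitin ligase parts that remove CDT1, were nearest to no difference, with a median of -0.02 over 9 tested genes, 0 of them under an unadjusted p of 0.05, and values from *Lrwd1*, an ORC-associated protein (-0.08), to *Kat7*, a histone acetyltransferase that acts with CDT1 (0.06). Genes of G2 and M phase had a median of -0.06 over 14 genes, 0 of them under an unadjusted p of 0.05, from *Ccnb2* (-0.13) to *Cdk1* (0.05). Genes of entry into meiosis had the lowest median, -0.20 over 5 genes, but with wide spread between mice, as for *Stra8*, which is needed to start meiosis (167 ± 21.3 against 138 ± 29.8 CPM, SD, n = 4 each, log2 fold change -0.28, SE 0.159), and the highest value was that of *Ythdc2* (-0.02). None of these list genes passed the test over all genes in edgeR, so no gene of these pathway lists is said to have changed.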

How the data were processed

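Whole P12 testes, 4 wild type and 4 *Tra2b-cPEko*, gave stranded mRNA libraries that were sequenced as paired reads. The authors deposited raw counts per gene, 1 table a mouse, with 5 summary lines of the form that htseq-count writes, which were left out here. The submitters' processing notes name HISAT2 2.2.1, SAMtools 1.7.1, HTSeq 2.0.2 and deepTools 3.5.1 with GRCm39, while the paper's methods also name Salmon and DESeq2. Whether the counting used the strand is not given in the sources used here, so how reads on overlapping genes of opposite strands were counted is not known. Reads set aside as ambiguous between genes were 0.468 to 0.635% of those in the tables. Reads on genes were 66.4 to 69.0% of those in the tables. Within a genotype, every 2 libraries differed beyond counting noise, by a chi-square of 5.79 to 17.5 for each degree of freedom, and no library was a duplicate.

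The test was edgeR's (4.0.16, in R 4.3.3) robust glmQLFit and glmQLFTest after TMM scaling, on genes kept by filterByExpr with a minimum count of 10 and a minimum total of 15, with genotype as the only term and Benjamini-Hochberg adjustment over 19104 genes (threshold 0.05). DESeq2 1.42.0, limma-voom (limma 3.58.1), other scalings, filters and thresholds, a replicate block and fits without each mouse were alternatives. Lengths and positions came from GENCODE vM39 on GRCm39, and promoters from RefSeq on GRCm38.p6. Neighbouring levels were compared with an exact sign-flip test over 256 sign patterns. Correlations used log2 CPM with a prior count of 2. The scripts were tested on simulated data. Figures were drawn with matplotlib 3.10.9 in Python 3.11.15.

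The 9 genes, the lists and the tests were chosen with earlier results of these data known. Genes named are the 9 members, in each pathway list the called genes and those with the highest and lowest fold change, *Tra2b* and *Tra2a*, genes that overlap a member, and the 5 genes most like *Orc2*. *Lig1* was named after its value was seen.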

Additional observations from a re-analysis of the deposited data

How the results depend on the processing

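The number of licensing genes called was 1 with edgeR, 2 with DESeq2 (*Orc2* and *Orc4*), 0 with limma-voom, 0 at an adjusted p under 0.01 and 0 to 1 when a mouse was left out. These calls fell on the genes that the family was chosen on, so they are counts and no measure of stability. The log2 fold change of *Orc2* ran from -0.30 to -0.26 over 16 other fits. Pathway genes called were 7 with DESeq2, 2 without a low-count filter, 2 at an adjusted p under 0.1, and 0 in every fit without a mouse. The median log2 fold change of the 9 genes stayed below 0 in all 16 fits, from -0.1072 to -0.0701 without a mouse, the latter without *Tra2b-cPEko* mouse A. Without a mouse, *Orc1* ran from -0.0533 to 0.0155. The sign turned for *Orc1* with upper-quartile factors (0.0063), without wild type mouse C (0.0155) or D (0.0021) and without *Tra2b-cPEko* mouse C (0.0093), and for *Cdt1* without wild type mouse D (0.0043), the highest of its values without a mouse (lowest -0.112). The number of neighbouring levels that differed was 4 to 6 when a mouse was left out and 6 with longest transcripts, against 5. With longest transcripts the order changed and most neighbours were other pairs of genes, so 6 and 5 do not count the same comparisons. The cause of these shifts was not tested. Mice that share a replicate letter did not vary together (correlations from -0.135 to 0.116), so the letters are not taken to pair them. With the letter as a replicate block, 1 licensing gene and 0 pathway genes were called, and the log2 fold change of *Orc2* was -0.28. The lowest count of a licensing gene in a library was 1009, and the biological coefficient of variation over all genes was 9.56%.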
